A study of Mus musculus with 9 samples.

Results

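Connexins are the proteins of which gap junction channels are built, and 6 of their genes were followed in the mouse cochlea: Gjb2 (Cx26), Gjb6 (Cx30), Gja1 (Cx43), Gjb1 (Cx32), Gjc1 (Cx45) and Gja4 (Cx37). Their probe sets were those to which the array annotation gives exactly 1 gene symbol, that of a member, which left 13 of the 34945 single-gene probe sets and of 45037 in all. By gene they are 6 of the 18193 with a single-gene probe set. Gja1 had 6 of them, Gjb1 and Gjc1 had 2 each, and Gjb2, Gjb6 and Gja4 had 1 each. A signal filter at the 40th percentile of mean log2 signal was passed by 9 of the 13 probe sets and by 5 of the 6 genes, all but Gjb1, and values of the other 4 come from a fit without it. RNA came from whole cochleae of male C57BL/6 mice in 3 groups. The CR group was 15 months old and had eaten 62 kcal per week, 26% below control intake, since 2 months of age. The MC group was also 15 months old and ate the control 84 kcal per week, and the YC group was 4 months old on that control intake. All mice were housed singly. A group had 3 samples, a sample pooled 4 cochleae of 2 mice, and each was hybridised to 1 single-colour array. The C57BL/6 strain is known for hearing loss that sets in early in adult life, and the title of the series names prevention of such loss by restriction as its subject.

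Connexins assemble into hexameric hemichannels, and hemichannels of neighbouring cells dock into a channel that passes ions and small metabolites. In the cochlea, Cx26 and Cx30 form mixed channels that couple the supporting cells around the hair cells into one network and the fibrocytes and basal cells of the lateral wall into another. Mutations of either gene are linked to deafness in people and mice, and the networks are thought to carry potassium away from the hair cells and to distribute glucose. Cx43 is found in cochlear bone, connective tissue and glia, Cx32 in myelinating glia, Cx45 in smooth muscle and developing vessels, and Cx37 in arterial endothelium.

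The arrays fell into 2 classes that the labels do not describe. The 3 CR arrays and YC 1 had median signals of 526.8 to 626.6, and the 3 MC arrays, YC 2 and YC 3 had 842.4 to 1103.9. Each of CR and MC lay in 1 class, so diet and array class cannot be told apart between them, and only YC spans both. Cochlear tissue was present by its markers: all 12 markers of lateral wall fibrocytes passed the signal filter. Of markers with a single-gene probe set, 11 of 14 of supporting cells passed it, but only 4 of 10 of the sparse hair cells did.

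By the brightest probe set of each gene, Gjb2 and Gjb6 stood clearest of both control groups in restricted cochleae, at 1.97 and 2.08 times the MC level, but neither passed the test after adjustment over all 27022 probe sets. On the normalized log2(signal + 16) scale, Gjb2 read 13.82, 14.43 and 14.16 in CR, 13.41, 12.60 and 13.48 in MC, and 13.35, 12.89 and 12.55 in YC. All CR arrays lay above every control array, by 0.34 at the closest, and MC and YC overlapped. The Gjb2 level averaged 14.14 ± 0.30 in CR, 13.16 ± 0.49 in MC and 12.93 ± 0.40 in YC (SD, n = 3 each). The log2 change of CR minus MC was 0.98 ± 0.29 (SE; 95% interval 0.34 to 1.62), a 1.97-fold difference, with an adjusted p of 0.175 in limma.

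Gjb6 read 14.32, 14.78 and 14.53 in CR, 13.57, 13.49 and 13.39 in MC, and 13.71, 13.36 and 12.65 in YC. Again every CR array was above every control array, here by 0.61 at the closest, and MC lay inside the range of YC. The Gjb6 level averaged 14.54 ± 0.23 in CR, 13.48 ± 0.09 in MC and 13.24 ± 0.54 in YC (SD, n = 3 each). Its CR minus MC change was 1.06 ± 0.25 (95% interval 0.50 to 1.62), or 2.08-fold, with an adjusted p of 0.146 in limma. Without YC 2 in the fit the change was the same 1.06 and passed, with an adjusted p of 0.0485 in limma. YC 2 is in neither compared group, so only the shared estimate of the spread differed. That fit called 987 probe sets on the array, against 25 with all arrays. Leaving out CR 2, CR 3, MC 1 or MC 3 instead gave 0 calls. In the deposited signals, before any normalization here, Gjb6 stood at 24878.7 to 31069 in CR, 9218.7 to 11119.9 in MC and 6291.4 to 17178.2 in YC. Gjb2 stood at 17659.2 to 24512.1 in CR, 6040.9 to 9821.4 in MC and 5488.9 to 13246.9 in YC. The separation of CR from all controls was therefore present for both genes on the authors' own scale, and in both the highest YC value belonged to YC 1.

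**Figure D1:**
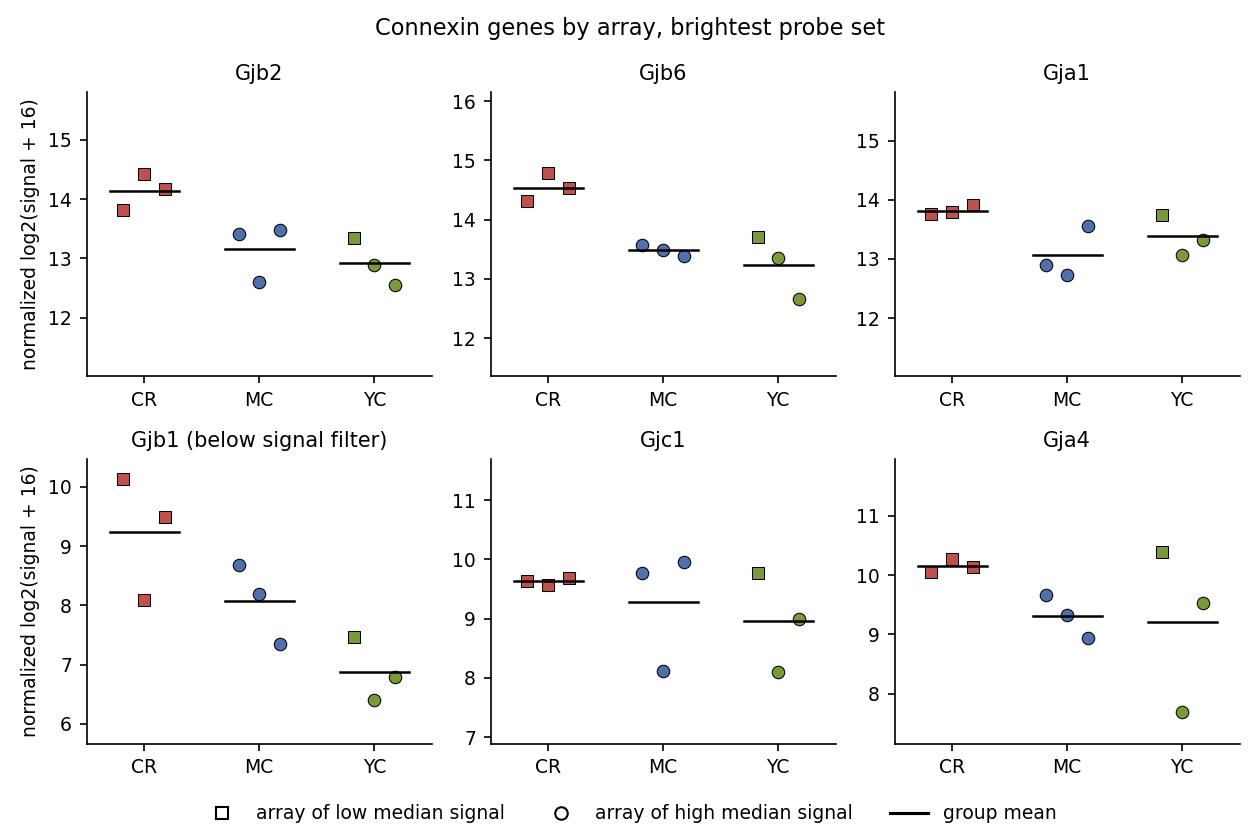
Normalized log2(signal + 16) of each connexin gene by array (vertical axis, one span for every panel), for CR, MC and YC (horizontal axis), from the brightest probe set of each gene; bars are group means of 3 arrays and squares mark arrays of low median signal. For Gjb2 and Gjb6 the CR arrays clear all others by 0.34 and 0.61. Over MC and YC, Gja4 runs from 7.68 to 10.39, Gjb1 from 6.40 to 8.68 and Gjc1 from 8.11 to 9.95.

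Gjb2 and Gjb6 lie next to each other on chromosome 14 in the RefSeq gene order, with Gja3, the lens connexin Cx46, on the far side of Gjb2 and Cryl1, which encodes a crystallin-like dehydrogenase, on the far side of Gjb6. The neighbours did not share the direction. Gja3 was below the signal filter, with a CR minus MC change of -0.55 ± 0.82. Cryl1, named after its value was seen, had -1.16 ± 0.40 with an adjusted p of 0.200 in limma. The promoters of the 3 brightest members are shown because Gjb2 and Gjb6 were high in the same arrays, and Gja1 is set beside them. Each is the 250 bases before the transcription start in RefSeq (GRCm38.p6), written 5′ to 3′ on the gene's own strand. Capitals mark GGGCGG, the core of a GC box, on either strand (CCGCCC on the other), and TGANTCA, the AP-1 type element, which was added to the search after the lists were set. The Gjb2 window is chr14:57104703-57104952 on the minus strand, that of Gjb6 chr14:57133612-57133861 on the minus strand, and that of Gja1 chr10:56377050-56377299 on the plus strand.
Gjb2: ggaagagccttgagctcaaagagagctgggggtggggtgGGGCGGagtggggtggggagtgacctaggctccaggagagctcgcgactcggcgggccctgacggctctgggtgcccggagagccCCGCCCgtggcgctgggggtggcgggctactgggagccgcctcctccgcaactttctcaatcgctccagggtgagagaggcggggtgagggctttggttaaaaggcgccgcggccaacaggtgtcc
Gjb6: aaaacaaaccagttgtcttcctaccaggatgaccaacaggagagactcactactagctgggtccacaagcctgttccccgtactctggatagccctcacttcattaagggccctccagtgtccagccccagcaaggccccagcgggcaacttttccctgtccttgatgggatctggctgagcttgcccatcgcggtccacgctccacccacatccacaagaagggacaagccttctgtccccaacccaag
Gja1: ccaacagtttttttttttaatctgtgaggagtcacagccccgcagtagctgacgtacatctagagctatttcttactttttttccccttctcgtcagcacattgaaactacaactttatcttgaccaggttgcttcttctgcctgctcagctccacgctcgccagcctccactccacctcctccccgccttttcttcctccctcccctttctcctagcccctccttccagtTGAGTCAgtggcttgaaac
The Gjb2 window held GGGCGG at 211 and, on the other strand, 126 bases before the start, and it was 69.2% G and C with 18 CpG pairs. The Gjb6 window held neither motif, was 56.8% G and C and had 5 CpG pairs. The Gja1 window held 1 TGANTCA, 19 bases before the start, and had 6 CpG pairs. Of all 32851 windows in the table, 32.7% held GGGCGG and 6.75% held TGANTCA, and the median window was 52.4% G and C with 6 CpG pairs. The motifs did not overlap each other in these windows. The Gjb2 window was in the upper part of the table for G and C, and those of Gjb6 and Gja1 were close to the median. Matches are letters in a window and were not tested as binding sites. Of the other members, the Gja4 window held 1 GGGCGG, and 1 of the 4 Gjb1 windows held 3.

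Gja1 was measured by 6 probe sets, and these disagreed. Its brightest, 1437992_x_at, read 13.75, 13.79 and 13.91 in CR, 12.90, 12.73 and 13.56 in MC, and 13.75, 13.07 and 13.32 in YC. CR lay above MC on every array, while YC 1 was only 0.0054 below the lowest CR array. The CR minus MC change was 0.75 ± 0.25 (SE; 95% interval 0.21 to 1.3), 1.69-fold, with an adjusted p of 0.190 in limma. In the deposited signals this probe set stood at 15951.9 to 17685.8 in CR, at 6643.8 to 10347.1 in MC and at 6107.6 to 17589.6 in YC, so that CR and YC overlapped there.

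Among the other Gja1 probe sets, 1415800_at read 13.02, 12.69 and 13.08 in CR, 12.19, 12.10 and 11.78 in MC, and 13.04, 10.95 and 12.36 in YC. CR was above MC throughout, and the YC arrays ran from the lowest value of all to the level of CR. Its CR minus MC change was 0.91 ± 0.43, and those of 1438945_x_at and 1438650_x_at were 1.01 ± 0.51 and 0.71 ± 0.52, with adjusted p of 0.282 to 0.459 in limma. The probe set 1438973_x_at went the other way, with 11.11, 11.14 and 11.34 in CR, 11.58, 11.30 and 11.43 in MC, and 10.49, 12.19 and 11.44 in YC. Its CR minus MC change was -0.24 ± 0.38 (95% interval -1.06 to 0.59), and it was lowest in YC 1 and highest in YC 2, the reverse of the order in 1415800_at. Over the 9 arrays it correlated at r = -0.84 to -0.53 with the other 4 Gja1 probe sets past the signal filter, while these correlated with each other at 0.66 to 0.96. The suffix _x_at marks probe sets whose probes can also bind other transcripts, which applies to 4 of the 6. The dimmest, 1415801_at, below the signal filter, read 9.60, 9.80 and 9.95 in CR, 7.10, 6.67 and 8.66 in MC, and 9.16, 9.24 and 7.66 in YC. On this normalized scale all CR arrays lay above every control array, by 0.36 at the closest. In the deposited signals YC 2, at 886.2, was above all CR arrays, at 539.7 to 831.6. This probe set had the largest change of any connexin probe set in CR minus MC, 2.31 ± 0.71 (95% interval 0.76 to 3.85), with an adjusted p of 0.183 in limma without the filter.

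**Figure D2:**
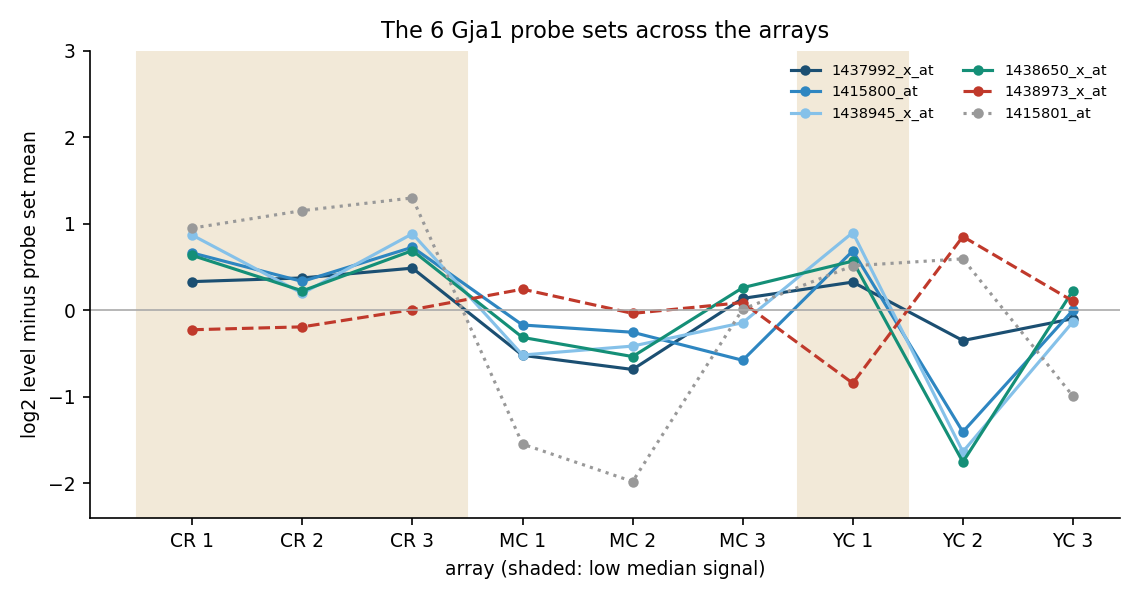
Levels of the 6 Gja1 probe sets across the 9 arrays (horizontal axis; low-median arrays shaded), each as normalized log2 level minus its own mean over the arrays (vertical axis). The dashed line of 1438973_x_at dips at YC 1 and peaks at YC 2, against the direction of the solid lines, and the dotted line of 1415801_at has the widest difference between CR and MC, 2.31.

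Gja4, the connexin of arterial endothelium, read 10.05, 10.28 and 10.13 in CR, 9.66, 9.33 and 8.93 in MC, and 10.39, 7.68 and 9.53 in YC. CR was above MC on all arrays, but YC 1 was above CR and YC 2 was the lowest array by over 1 log2 unit. The CR minus MC change was 0.85 ± 0.62 (95% interval -0.52 to 2.21; adjusted p 0.462 in limma), and on the deposited scale CR 1 with 821.6 was under MC 1 with 973.2. Gjc1 read 9.64, 9.57 and 9.68 in CR, 9.77, 8.11 and 9.95 in MC, and 9.77, 8.11 and 9.0 in YC. The CR arrays lay close together and inside the range of MC, and the change was 0.35 ± 0.61 (95% interval -0.99 to 1.69), turning to -0.23 without MC 2. The second Gjc1 probe set was dim, at 9.7 to 37.4 units of deposited signal, with a change of -0.08 ± 0.38 after normalization. As deposited, its CR arrays, at 13.4 to 15.4, lay below all MC arrays, at 34.2 to 37.4, and the change was -0.77 ± 0.45.

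Gjb1, the connexin of myelin, was under the signal filter in both probe sets, and the brighter one is shared between transcripts by its _s_at suffix. That one read 10.14, 8.08 and 9.49 in CR, 8.68, 8.19 and 7.35 in MC, and 7.46, 6.40 and 6.78 in YC. CR was above YC on every array and overlapped MC through CR 2. In limma without the filter the CR minus YC change was 2.36 ± 0.74 (95% interval 0.74 to 3.97, adjusted p 0.483) and the CR minus MC change 1.16 ± 0.74 (adjusted p 0.442), which was 0.71 without CR 1. The other probe set had a CR minus MC change of 1.11 ± 0.98. The summed normalized signal of 7 Schwann cell markers overlapped between the groups, at 81943 to 97577 in CR, 70168 to 104759 in MC and 90546 to 102901 in YC. Of 8 measured oligodendrocyte markers, 8 were higher in CR than MC, with a median log2 change of 0.69 and none past the test. The part of these cells in the Gjb1 values was not tested.

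Counted over all 13 probe sets, 11 were higher and 2 lower in CR than in MC, with a median log2 change of 0.91, and 0 passed at an adjusted p under 0.05 in limma. Across the array 0.0925% of probe sets passed in that comparison, and 0.0037% passed as higher in CR, so a count of 0 is close to the background. At an unadjusted p under 0.05 there were 4 connexin probe sets, all higher (Gjb2, Gjb6 and the Gja1 probe sets 1437992_x_at and 1415801_at), where 8.99% of all probe sets past the filter were higher and 9.54% lower by the same measure. The groups did not overlap, with CR higher, for 7 of the 13, against 19.5% of the array, and for 0 with CR lower, against 18.2%. Of these 7, 4 were probe sets of Gja1 alone, so the counts of 13 are not of independent genes. By the brightest probe set of each gene, CR was higher without overlap for 4 of 6, beside 2930 of all 18193 genes. The median change was 0.08 over all probe sets past the filter and 0.02 over the brightest probe sets of all 18193 genes. Fitting CR and MC alone called 3 connexin probe sets, among 1846 on the array, and array weights, whose estimation did not converge, called 5 among 3397. By p in CR minus MC, Gjb6 ranked 301, Gjb2 976 and the brightest Gja1 probe set 1656 of 27022. Every CR array exceeded every MC and every YC array in 4 of 13 connexin probe sets, against 7.09% of the array. They were those of Gjb2 and Gjb6 and the Gja1 probe sets 1437992_x_at and 1415801_at. Of these, Gjb2 and Gjb6 were also separate in the deposited signals, but both Gja1 probe sets overlapped YC there. The 4 probe sets below the filter are included in these counts of 13, whereas the shares of the array are over probe sets past it.

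**Figure D3:**
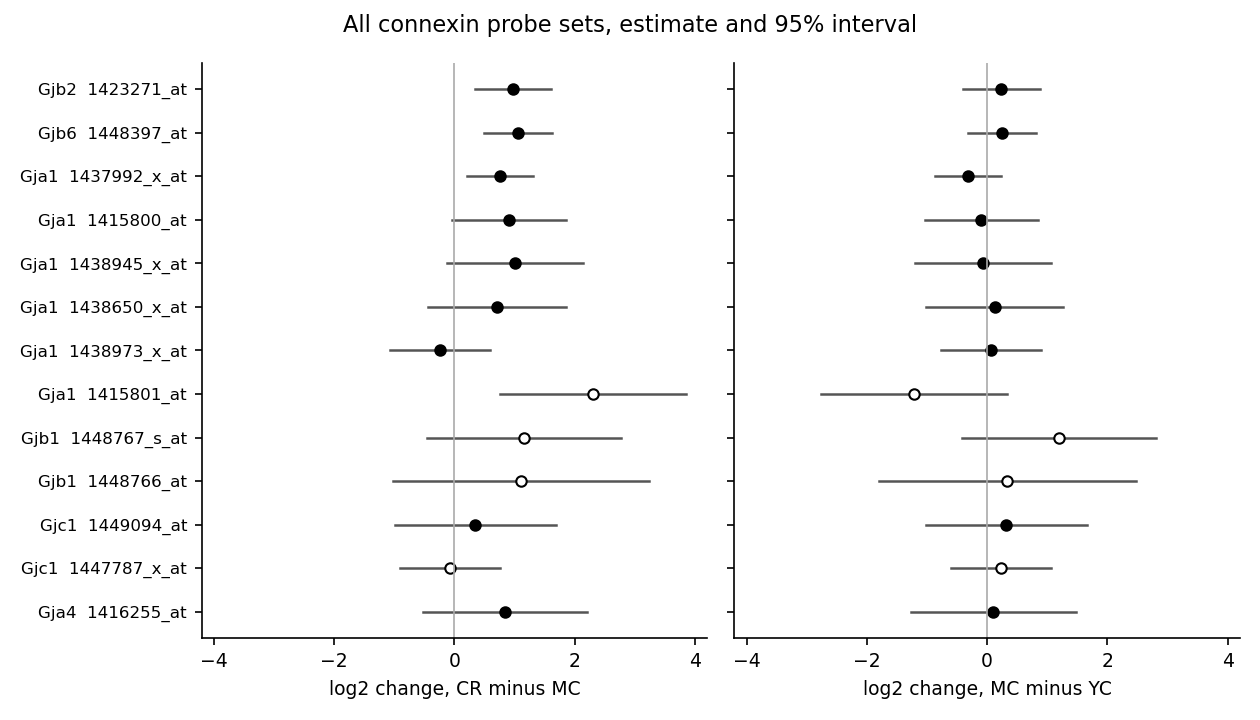
Log2 change (horizontal axes) of every connexin probe set (rows) for CR minus MC on the left and MC minus YC on the right, with 95% intervals from limma; open circles are probe sets below the signal filter. In CR minus MC, 11 of 13 estimates are above 0 and the intervals of 4 leave out 0, while in MC minus YC every interval includes 0.

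No connexin differed with age by the test. Of the 13 probe sets 9 were higher and 4 lower in MC than in YC, with a median log2 change of 0.12. The groups did not overlap for 1 of them, the dim Gjc1 probe set, which was higher in MC, while 2.97% of the array was higher and 2.92% lower without overlap. In the deposited signals that probe set did overlap, at 34.2 to 37.4 in MC and 9.7 to 35.2 in YC. None of the 13 passed the test, as 0% of the array did, and 0 had an unadjusted p under 0.05, against 1.36% of the array higher and 2.03% lower. MC minus YC was 0.24 ± 0.29 for Gjb2 (95% interval -0.40 to 0.88), 0.24 ± 0.25 for Gjb6 (-0.32 to 0.81) and -0.32 ± 0.25 for the brightest Gja1 probe set (-0.86 to 0.23). Each interval includes 0, which does not show that the ages were alike. Gjc1, at 0.32 ± 0.61, and Gja4, at 0.10 ± 0.62, were less precise. Leaving out YC 2 turned Gjc1 to -0.10 and Gja4 to -0.66, leaving out MC 3 turned Gjc1 to -0.014, leaving out MC 1 turned Gja4 to -0.071, and leaving out YC 3 turned Gjb6 to -0.049. Gjb2 was 0.047 without YC 3, 0.078 without MC 3, 0.11 without MC 1, 0.45 without YC 1 and 0.52 without MC 2. Gja1 was -0.13 without YC 1, -0.15 without MC 2 and -0.56 without MC 3. Gjb1 had 1.19 ± 0.74 (adjusted p 0.995 in limma without the filter).

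Restricted 15-month cochleae were also set against 4-month controls. That comparison shares its CR arrays with CR minus MC and its YC arrays with MC minus YC, so the values are not independent. Here 12 of 13 probe sets were higher and 1 lower in CR, with a median of 0.94. Over all probe sets past the filter the median was 0.08. The change was 1.21 ± 0.29 for Gjb2 (2.32-fold, adjusted p 0.4 in limma) and 1.3 ± 0.25 for Gjb6 (2.47-fold, adjusted p 0.274). Without YC 1 the Gjb6 change was 1.54 and passed, with an adjusted p of 0.0356 in limma. That fit called 363 probe sets on the array, against 0 with all arrays. YC 1 is the only YC array of low median signal, so without it CR and YC differ in array class throughout. By unadjusted p these ranked 105 and 34 of 27022, and at an unadjusted p under 0.05 there were 3 connexin probe sets, all higher, where 5.21% of the array was higher and 5.56% lower. CR was higher without overlap for 5 of the 13, against 11.4% of the array, and lower for 0, against 9.1%. Among the 5 were the Gja1 probe sets 1437992_x_at and 1415801_at, which overlapped YC in the deposited signals. By the brightest probe set of each gene CR was higher without overlap for 4 of 6, Gja1 included, beside 1696 of all 18193 genes. With all arrays in the fit, no probe set on the array passed this comparison, which is 0%. Over all 3 groups together, limma's moderated F test gave adjusted p of 0.336 for Gjb2, 0.230 for Gjb6 and 0.392 for Gja1, and 0% of the array passed.

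The 4 low-median arrays were all above the 5 high-median ones for Gjb6, Gja4 and the Gja1 probe sets 1437992_x_at, 1415800_at and 1438945_x_at, as for 11.2% of all probe sets. For Gjb2 they overlapped.

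Within the low-median class, CR averaged 14.14 and YC 1 had 13.35 for Gjb2, and for Gjb6 the values were 14.54 and 13.71. Both genes were thus higher in the restricted arrays than in the YC array of the same class, by 0.79 and 0.83. For Gja1 the brightest probe set differed by 0.07, with 13.82 in CR and 13.75 in YC 1, but CR minus YC 1 was -0.11 for 1415800_at, -0.25 for 1438945_x_at and -0.053 for 1438650_x_at. It was 0.71 for 1438973_x_at and 0.62 for 1415801_at, and for Gja4 and Gjc1 CR was the lower by -0.24 and -0.14. For Gjb1, below the signal filter, CR minus YC 1 was larger, at 1.78 for 1448767_s_at and 1.96 for 1448766_at. Among high-median arrays, MC minus the mean of YC 2 and YC 3 was 0.45 for Gjb2, 0.48 for Gjb6, -0.13 for Gja1, 0.70 for Gja4 and 0.73 for Gjc1. For Gjb1 that difference was 1.48 in 1448767_s_at and 0.08 in 1448766_at. With array class as a term in limma, which then rests on YC 1 against YC 2 and YC 3, no connexin passed and the errors were wide. CR minus MC was then 0.35 ± 0.48 for Gjb2, 0.35 ± 0.39 for Gjb6, 0.20 ± 0.41 for Gja1, 0.30 ± 1.3 for Gjb1, -0.86 ± 1.01 for Gjc1 and -0.94 ± 0.91 for Gja4. The direction of Gjc1 and Gja4 was thus the opposite of that without the term. The same held for 4 of the 6 Gja1 probe sets. In limma without the filter, 1415800_at had -0.48 ± 0.58, 1438945_x_at -0.77 ± 0.66 and 1438650_x_at -0.62 ± 0.80 with the class term. The probe set 1438973_x_at had 1.09 ± 0.48 there, with an unadjusted p of 0.0438, and 1415801_at kept its direction at 1.59 ± 1.26.

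The scale of the arrays also set the size of the changes. Over all probe sets the median CR minus MC change was -0.31 in the table as deposited, 0.02 after quantile normalization and 0.31 with arrays centred on their median. For Gjb2 the CR minus MC change was 1.34 as deposited and 1.96 median-centred, beside 0.98 normalized. Gjb6 had 1.42 and 2.04 in those scales, beside 1.06, and the brightest Gja1 probe set had 1.11 and 1.73, beside 0.75. These 3 genes were above the array-wide shift in every scale, and each change was smallest in the quantile-normalized values. As deposited, Gja4 had 0.31, beside 0.85, Gjb1 had 0.57, beside 1.16, and Gjc1 was -0.26, beside 0.35. The Gja1 probe set 1438973_x_at was -0.21 as deposited and 0.41 median-centred, beside -0.24.

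**Figure D4:**
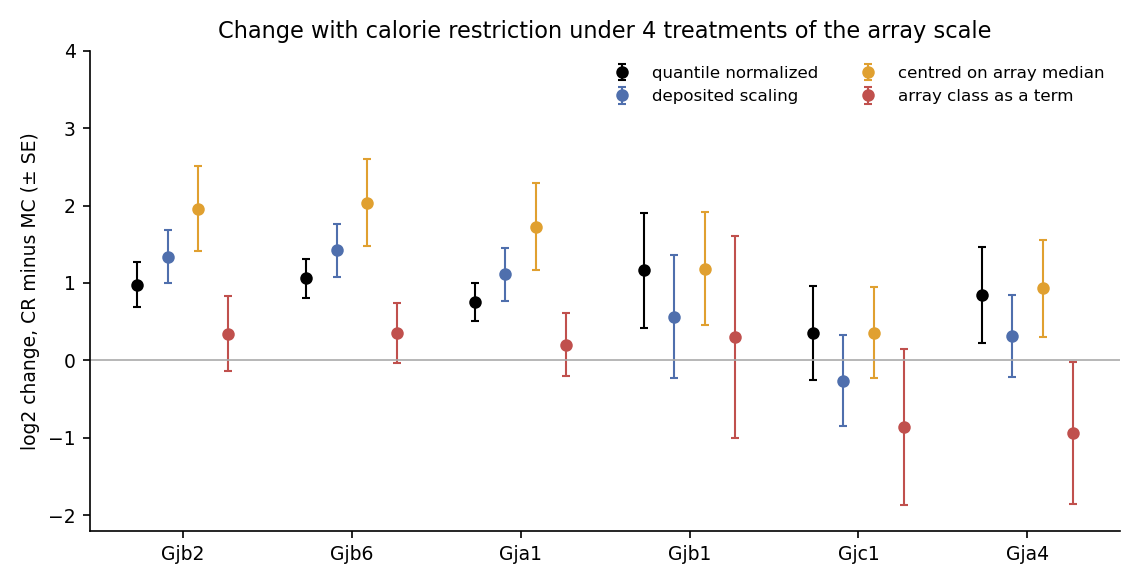
Log2 change of CR minus MC (vertical axis, ± SE) for the brightest probe set of each gene (horizontal axis) after quantile normalization, in the deposited scaling, with arrays centred on their median and with array class as a term. Gjb2, Gjb6 and Gja1 stay above 0 in all 4, at 0.35, 0.35 and 0.20 with the class term, and Gjc1 and Gja4 turn negative there.

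Markers of the cell types that use these connexins, and of other tissues a dissected cochlea can hold, were read in the same arrays. Of 11 measured supporting cell markers 9 were higher in CR than MC, with a median log2 change of 0.83, and their summed normalized signal was 67622 to 82291 in CR, 46890 to 54425 in MC and 39208 to 55779 in YC. The 2 lower ones were Tectb, at -0.33 ± 0.42, and Otoa, at -0.33 ± 0.68. Slc1a3, at 1.28 ± 0.23, and Fgfr3, at 1.78 ± 0.82, are also in the astrocyte list below, so these lists are not independent. Of 12 lateral wall fibrocyte markers 11 were higher, with a median of 0.79, and they summed to 193919 to 261215 in CR, 152035 to 183398 in MC and 130740 to 173738 in YC. Both sums were thus also highest in the CR arrays, with none of their genes past the test. Otos, otospiralin of the fibrocytes, changed by 1.04 ± 0.25 in CR minus MC and Coch, cochlin, by 0.98 ± 0.26. Strial markers had a median of 0.68 with 7 of 11 higher, and sums of 24991 to 33269 in CR, 18835 to 21412 in MC and 19924 to 37994 in YC. The highest strial sum was that of YC 2, so CR was above MC there but not above YC.

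Astrocytes of the brain also express Gjb6 and Gja1. All 11 measured astrocyte markers were higher in CR than MC, with a median of 1.16 and sums of 106221 to 113387 in CR, 47655 to 63052 in MC and 46430 to 74479 in YC. The highest YC sum was that of YC 1. Of these markers Aldoc, an aldolase of astrocytes and Purkinje cells, changed by 1.73 ± 0.28 and Slc1a3, a glutamate transporter that cochlear supporting cells use too, by 1.28 ± 0.23. Brain neuron markers, 11 of 12 higher, had a median of 1.54 and summed to 73832 to 111074 in CR, 36977 to 37206 in MC and 31993 to 49954 in YC. Skeletal muscle markers were lower in CR in 12 of 12, and 10 of them passed the test as lower, with sums of 244186 to 335888 in CR, 887154 to 1245334 in MC and 626137 to 1146410 in YC. Over all genes past the filter, by the brightest probe set of each, 19 of 13702 passed as lower in CR than in MC.

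Endothelial markers, the setting of Gja4, had a median of -0.17 with 5 of 11 higher and sums of 22797 to 23254 in CR, 24458 to 25230 in MC and 23656 to 27732 in YC. Vascular smooth muscle and pericyte markers had -0.09 with 4 of 10 higher, bone markers 0.29 with 6 of 10 higher, and red cell markers -0.24 with 0 of 6 higher. Hair cells, which lack gap junctions, had 4 markers past the filter, with 1 higher and a median of -0.54, and their markers Pou4f3, Slc26a5, Lhfpl5, Cdh23, Gfi1 and Chrna9 were below it. Several marker sums differed between CR and MC, whose arrays also differ in class, and their part in the connexin values was not tested. In pooled tissue, more cells of a type and more RNA per cell cannot be told apart.

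**Figure D5:**
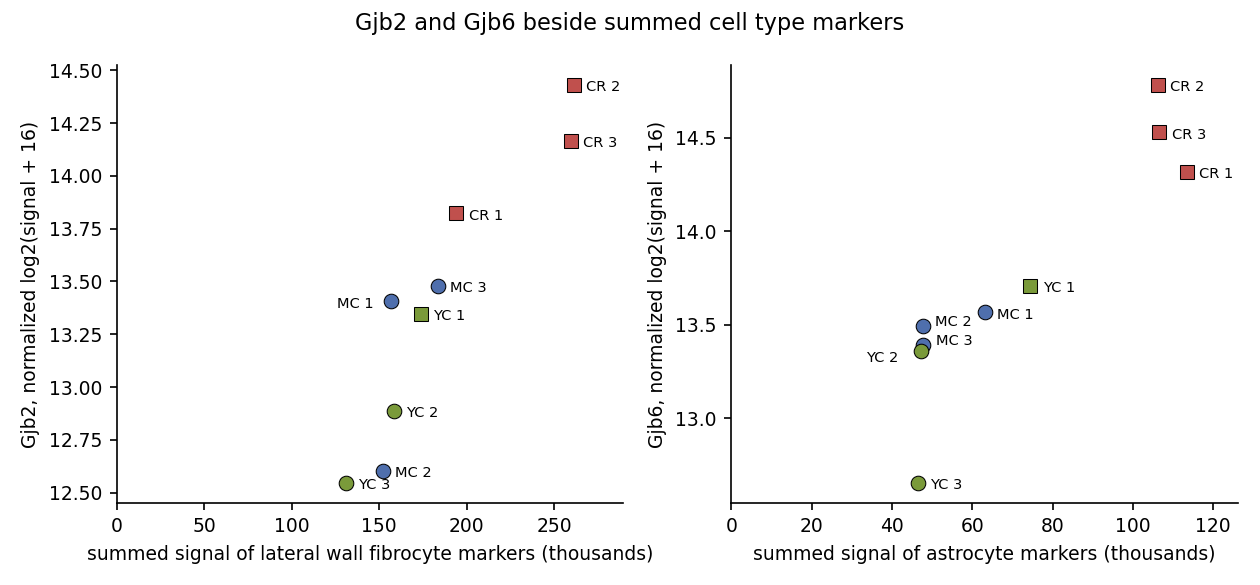
Normalized log2 signal (vertical axes) of Gjb2 beside the summed signal of 12 lateral wall fibrocyte markers, and of Gjb6 beside that of 11 astrocyte markers (horizontal axes), 1 point per array; squares mark arrays of low median signal. The CR arrays are highest on both axes of both panels, with astrocyte sums of 106221 to 113387.

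The connexins did not all follow one profile over the arrays. Gjb2 and Gjb6 correlated at r = 0.91, Gjb2 and the brightest Gja1 probe set at 0.75, and Gjb6 and Gja1 at 0.61. Gja4 followed Gja1 probe set 1415800_at at 0.96. These are descriptions over 9 arrays that share groups, array class and normalization. Of 13702 genes past the filter, those most like Gjb2 were Otos (r = 0.968), Otor (0.955) and S100b (0.954). Otos and Otor belong to the fibrocyte list above and S100b to the astrocyte list. The genes most like Gjb6 were Nap1l2 (0.979), Rnf152 (0.975) and the anion transporter gene Slc26a7 (0.970). For Gja1 they were Mdn1 (0.976), Rbp7 (0.976) and Akna (0.963), for Gja4 Rnase4 (0.996), Baz2b (0.987) and Tmem64 (0.986), and for Gjc1 Nln (0.973), Ush1c (0.962) and Esrra (0.961). No gene appeared under more than 1 connexin.

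Among other genes of the family, 11 connexin and pannexin genes were read by 16 single-gene probe sets. In CR minus MC 6 of these 16 were higher and 10 lower, with a median of -0.34, and 0 passed in limma. Only 5 of them exceeded the signal filter, so most readings were near the bottom of the scale. Of the genes past it, Panx1, a channel for ATP release, had 0.69 ± 0.53 in CR minus MC and -1.13 ± 0.53 in MC minus YC, and Gjd2, the neuronal connexin Cx36, had 0.70 ± 0.65 and -0.73 ± 0.65. The second Gjd2 probe set gave -0.36 ± 0.89 and 1.10 ± 0.89. Panx2 had 0.20 ± 0.49 and Panx3, expressed in bone, -0.39 ± 0.57 in CR minus MC. Below the filter, Gjd4 had the largest change of the 16, -2.14 ± 0.90, with all CR arrays under all MC arrays.

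Partners of connexins, a list of 34 genes of anchoring, trafficking, turnover and transcription, had 30 on the array and 29 past the filter. In CR minus MC 18 were higher and 11 lower, with a median of 0.16, and 0 passed in limma. Among adhesion and scaffold genes, the N-cadherin gene Cdh2 had 1.23 ± 0.39, the E-cadherin gene Cdh1 0.67 ± 0.22, the beta-catenin gene Ctnnb1 0.60 ± 0.20, Cav1 of caveolae 0.61 ± 0.24 and Tjp1, whose product ZO-1 binds Cx43, 0.47 ± 0.25. CR was above MC on every array for these 5 and for 9 of the 30 partners on the array in all, against 19.5% of all probe sets. Sp3, whose product binds GC boxes, had the largest change of the list, 2.36 ± 0.51 with an adjusted p of 0.128, while Sp1, which binds the same motif, had 0.18 ± 0.20. Sox2, a supporting cell factor, had 0.87 ± 0.39. Of the ubiquitin ligases, Wwp1 had -0.55 ± 0.23 and Nedd4 0.17 ± 0.22. In MC minus YC 17 partners were higher and 12 lower, with a median of 0.04.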

How the data were processed

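The deposited intensity values of 9 single-colour Affymetrix arrays were used as the authors made them with GCOS 1.3, per the submitters' processing notes. The signal algorithm was not given in the sources used here, nor was its scaling target. Intensities became log2(signal + 16), and the arrays were then quantile normalized, a scale on which changes of dim probe sets are understated. The filter on mean log2 signal, at its 40th percentile, left 27022 of 45037 probe sets and 13702 genes. limma 3.58.1 in R 4.3.3 (lmFit on group means over all 9 arrays, eBayes with a variance trend) gave changes, SEs and intervals, with Benjamini-Hochberg adjustment over all kept probe sets and 0.05 as the threshold. The fit was tested on simulated data.

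Each gene took its value from the brightest of its single-gene probe sets, and the other probe sets of a gene are described beside it. The annotation lists several genes for 932 probe sets and leaves 9160 unnamed here, and 34741 symbols matched RefSeq. The text names all members, genes of the family and partner lists, up to 3 genes with the smallest p of each marker list, and the 3 genes most correlated with each member past the filter. Fgfr3, Tectb and Otoa were named beyond that rule, after their values were seen. Members and lists were chosen with earlier results of these data known. Promoter windows were found for 5 of the 6 members. With 3 pools per group, a CR minus MC change had a median SE of 0.43. Replicate numbers were not taken to pair the samples. Alternatives were pseudocounts of 1 and 64, no filter or one at the 60th percentile, 2 other scalings, the mean of a gene's probe sets, no trend, array weights, fits of the compared groups alone, a replicate block, array class or array median as a term, the arrays of 1 class alone, and each array left out in turn.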

Additional observations from a re-analysis of the deposited data

How the results depend on the processing

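For Gjb2, Gjb6 and the brightest Gja1 probe set the CR minus MC change was above 0 under all 22 alternatives, but with array class as a term 4 of the 6 Gja1 probe sets changed sign (-0.48, -0.77, -0.62 and 1.09). Gjb2 had an adjusted p of 0.0213 to 1 over them, Gjb6 0.00983 to 1 and Gja1 0.0125 to 1. With array weights, whose estimation did not converge, Gjb2 (1.03), Gjb6 (1.04) and Gja1 (0.88) passed in CR minus MC and Gjb1 in CR minus YC (2.39), with 3397 probe sets and 5 connexin probe sets called in CR minus MC. With only the groups compared, Gjb6 passed at 1.06 (adjusted p 0.0184 in limma), with 3 connexin probe sets and 1846 probe sets in all. Against 25 in the fit reported, CR minus MC calls came to 7 in the deposited scaling and to 0 with arrays centred on their median, no variance trend, a replicate block, array class as a term or array median as a covariate. CR minus YC gave 3 calls, against 0, in low-median arrays only. Directions reversed as follows. MC minus YC was -0.075 for Gjb2 and -0.049 for Gjb6 with arrays centred on their median, and -0.13 for Gja4 with array weights. CR minus MC of Gjc1 was -0.26 in the deposited scaling, -0.86 with array class and -0.31 with array median, and that of Gja4 was -0.94 with array class and -0.55 with array median. CR minus YC was -0.14 for Gjc1 and -0.24 for Gja4, both with array class and in low-median arrays only. Leaving out 1 array at a time, with normalization and filter kept, gave CR minus MC of 0.94 to 1.17 for Gjb6, which passed without YC 2, and -0.23 to 0.69 for Gjc1, negative without MC 2. CR minus YC of Gjb6 was 1.01 to 1.54 and passed without YC 1. CR minus MC of Gjb1 was 0.71 to 1.74. MC minus YC was 0.047 to 0.52 for Gjb2, -0.56 to -0.13 for Gja1, -0.049 to 0.48 for Gjb6, -0.10 to 0.91 for Gjc1 and -0.66 to 0.70 for Gja4. Calls ranged from 0 to 987 in CR minus MC (987 without YC 2, 251 without YC 1, 48 without MC 2, 2 without CR 1, and 0 without CR 2, CR 3, MC 1 or MC 3) and from 0 to 363 in CR minus YC (363 without YC 1, 5 without MC 2), and connexin calls from 0 to 1 in each. The cause of these shifts was not tested. Replicate numbers are shared between groups, and deviations of same-numbered samples correlated at -0.29 to 0.27. With 3 samples per group this cannot exclude a pairing, and the main fit treated the samples as unpaired. With the replicate block, Gjb2, Gjb6 and Gja1 changed by 0.98, 1.06 and 0.75 in CR minus MC, and no connexin call changed. In MC minus YC, 0 probe sets were called under every alternative, with 915 at an unadjusted p under 0.05 in limma. Signals near background limit Gjb1, the second Gjc1 and 1 Gja1 probe set.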
